A study of Mus musculus with 19 samples.

Results

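A set of 9 B lymphocyte lineage genes, of 16842 genes listed in any library, was followed through RNA-seq libraries of sorted mouse bone marrow. They are Vpreb1, Igll1 and Vpreb3, Ebf1 and Pax5, Cd79a, Cd79b and Blk, and Ms4a1. The genes were chosen by their gene symbols after measured values had shown that B lineage genes leaned higher in old mutant and lower in young mutant CD11b libraries. Their differences between mutant and wild type in those cells are therefore described here without a test. All 9 genes were listed in every library and passed the filter on low counts in every comparison.

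Marrow of mice with an Asxl1 mutation (MT) or without it (WT) gave the 19 libraries. Asxl1 encodes a chromatin regulator that is often mutated in clonal haematopoiesis and chronic myelomonocytic leukaemia. The CD11b+ myeloid libraries were 3 MT and 4 WT from mice of 4 months, called young, and 3 of each genotype from mice of 18 months, called old. LK cells were taken at 18 months, again with 3 libraries per genotype. CD11b, encoded by Itgam, is an integrin of granulocytes and monocytes, and LK cells are progenitors that lack lineage markers and carry Kit. The labels give no allele, sex, strain or sorting gate, and do not say whether replicates were separate animals, so p-values measure the spread between these libraries, which may be technical. Neither sort is aimed at B cells.

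B cells mature in the marrow in steps. EBF1 and PAX5 are transcription factors that commit a progenitor to the B lineage. Pro-B and pre-B cells then make the surrogate light chain, a pair of proteins encoded by Vpreb1 and Igll1 that stands in for the light chain until one has been rearranged, and these genes are shut off afterwards. CD79A and CD79B carry the signal of the B cell receptor, BLK is a SRC family kinase of B cells, and MS4A1 (CD20) appears late in this sequence and stays on mature B cells. VPREB3 is a relative of VPREB1 that is made in pre-B and immature B cells. Plasma cells, the end stage, keep CD79A but lose PAX5 and MS4A1.

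The promoters of the 3 surrogate light chain relatives are shown because Vpreb1 and Igll1 parted from Ms4a1 and Blk in the CD11b values below. Vpreb3 lay between them. Sequence windows from RefSeq (GRCm38.p6) matched 6 of the 9 genes, and Cd79b, Ms4a1 and Blk were without one. Each line gives the 160 bases before a transcript start, 5′ to 3′ along the gene, for Vpreb1 (chr16:16869256-16869415, minus strand), Igll1 (chr16:16863986-16864145, minus strand) and Vpreb3 (chr10:75948140-75948299, plus strand). For Vpreb1 and Igll1 that start is the start of the gene, and for Vpreb3 it lies inside the annotated span of the gene, which runs from 75943024 to 75949657. Capitals mark matches to TCCCNNNGGGA, to CAGGTG or its complement CACCTG, and to ATGCAAAT or its complement ATTTGCAT.
Vpreb1: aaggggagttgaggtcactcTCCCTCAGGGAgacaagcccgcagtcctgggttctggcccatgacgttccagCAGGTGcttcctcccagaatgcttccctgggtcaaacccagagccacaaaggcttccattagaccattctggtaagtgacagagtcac
Igll1: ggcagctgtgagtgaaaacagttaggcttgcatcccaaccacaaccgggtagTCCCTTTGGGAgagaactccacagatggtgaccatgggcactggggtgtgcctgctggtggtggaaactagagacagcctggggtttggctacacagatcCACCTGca
Vpreb3: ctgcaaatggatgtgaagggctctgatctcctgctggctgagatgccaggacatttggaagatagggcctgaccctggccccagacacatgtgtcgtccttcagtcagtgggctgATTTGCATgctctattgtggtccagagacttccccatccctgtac

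Vpreb1 and Igll1 are neighbours on chromosome 16, both on the minus strand, with 4415 bases between the start of Igll1 and the end of Vpreb1. Both windows held TCCC and GGGA with NNN between them, on either strand, as 0.673% of all 32851 windows of 250 bases did. The EBF1 motif is usually written with NN between these ends. TCCCNNGGGA was in none of the 7 windows of the 6 matched genes and in 0.779% of all. The wider form was searched only after these sequences had been read. CAGGTG, an E-box, was in the windows of Vpreb1, Igll1 and Cd79a and in 17.2% of all. The octamer ATGCAAAT, a motif of immunoglobulin promoters, was in the window of Vpreb3 and in 1.60% of all. A match describes letters and does not show binding.

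Depth, as the total of gene counts, was 26251822 to 38347903 for young CD11b, 41909460 to 68260809 for old CD11b and 31853263 to 59882448 for LK libraries. Levels are in CPM, a gene's count relative to the scaled total of its library, with scaling factors set within each cell set. Itgam was at 1472 to 1812 CPM in young CD11b, 2589 to 2820 in old CD11b and 57.1 to 103 in LK libraries, and Kit was at 206 to 275 CPM in LK and 50.3 to 115 in CD11b libraries. The young set differed from the others in library content: the 7SK RNA had 166079 to 382187 counts there and 134 to 330 elsewhere. In each 18-month group replicates 2 and 3 were far closer to each other than to replicate 1. Over the 9 B lineage genes their median absolute log2 difference was 0.0506 to 0.0976, against 0.256 to 1.31 for pairs with replicate 1. Their counts differed by more than sampling noise, with a chi-square per degree of freedom of 2.92 to 6.39, against 13.7 to 44.5 for pairs with replicate 1. That excess cannot show whether they came from separate animals, since repeated preparations of the same RNA can also exceed it. They were kept as separate libraries as labelled, and fits with them summed are given below.

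**Figure D1:**
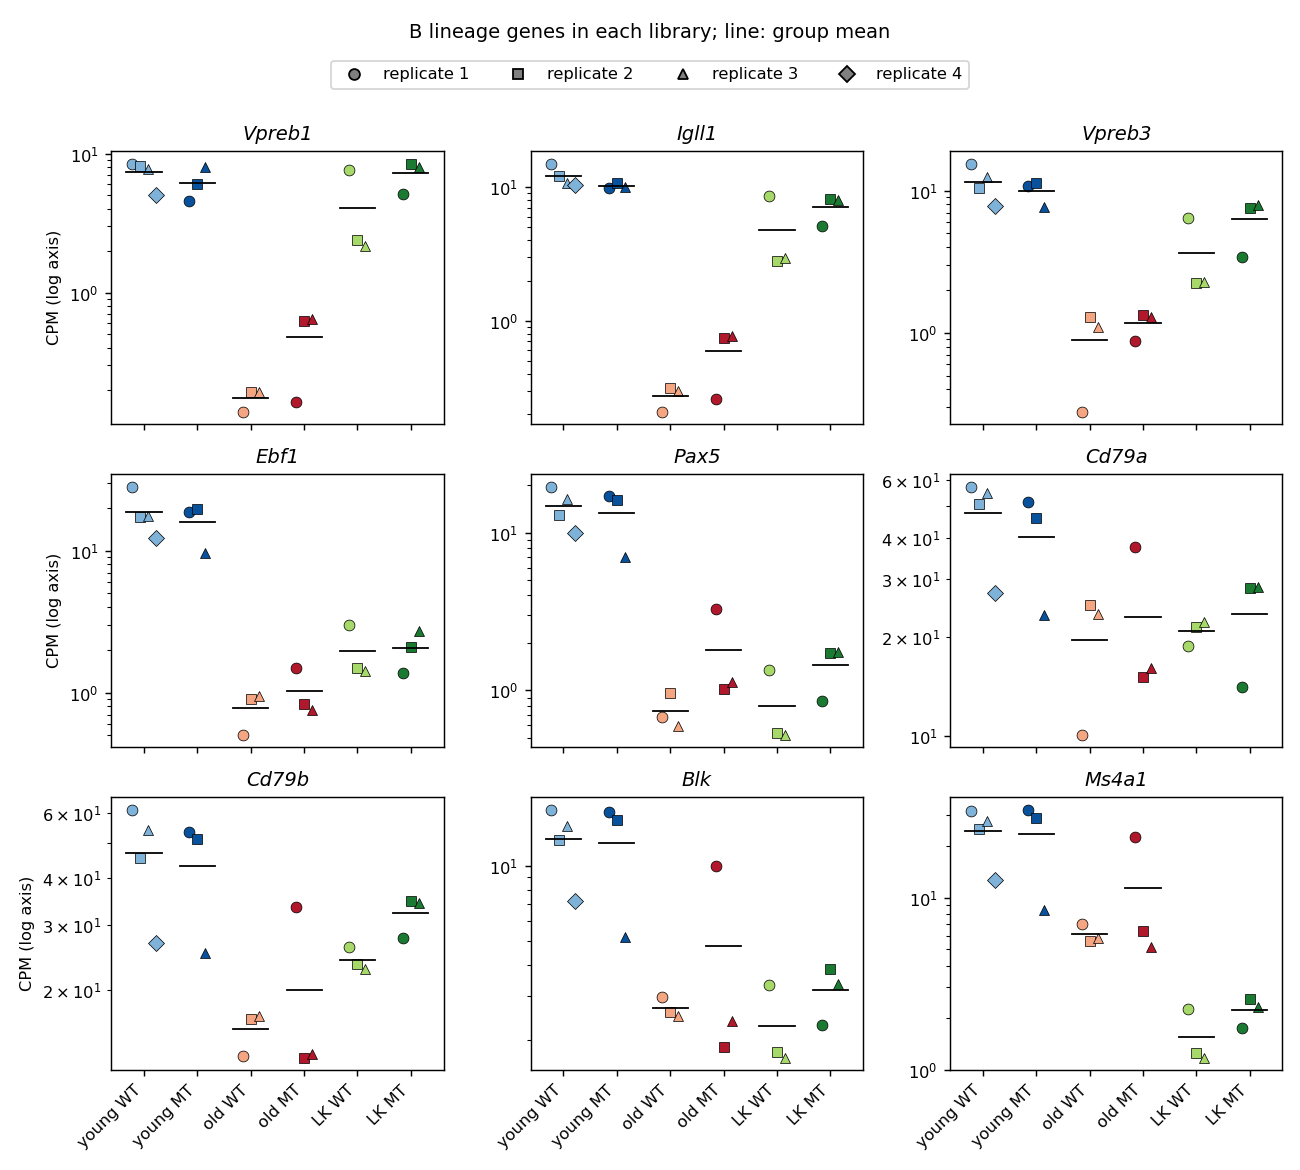
Level of each gene in every library as CPM on a log axis, with one panel per gene, the 6 groups along the x axis, marker shape for the replicate number and a line at the group mean. CPM is scaled within each cell set, so heights are compared within a set. In old MT libraries replicate 1 stands above the others in Pax5, Cd79a, Cd79b, Blk and Ms4a1, while replicates 2 and 3 stand above it in Vpreb1 and Igll1.

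In old CD11b cells the 9 genes were all higher in MT than in WT by the fitted value, from 0.24 on the log2 scale for Cd79a to 1.43 for Vpreb1. Different libraries carried this in different genes. Ms4a1 and Blk were high in MT replicate 1 alone, and Vpreb1 and Igll1 were high in MT replicates 2 and 3. In these bulk libraries more B cells and more RNA per B cell cannot be told apart. The groups did not overlap in 1 of 9 genes, Pax5, with MT higher, and 11.2% of all tested genes separated in that direction and 11.7% in the other. Over all genes, edgeR's quasi-likelihood test called 0.336% (0.127% higher and 0.209% lower), and no count of the 9 is read against these shares, since the genes were chosen in this contrast.

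Ms4a1 was at 22.6, 6.43 and 5.13 CPM in old MT replicates 1, 2 and 3 and at 7.01, 5.55 and 5.83 in old WT. MT replicate 1 was thus alone at the top, and the other 2 MT libraries lay within or below the WT range of 5.55 to 7.01. The fitted log2 fold change of Ms4a1 was 0.90 ± 0.65 (SE), and it was -0.08 without MT replicate 1. Blk, the kinase, was at 9.996, 1.87 and 2.39 CPM in MT and at 2.96, 2.58 and 2.5 in WT. Its fitted value of 0.83 ± 0.71 became -0.34 without MT replicate 1, as both other MT libraries were below every WT library.

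Pax5 was at 3.26, 1.03 and 1.13 CPM in old MT and at 0.680, 0.966 and 0.592 in old WT. The lowest MT library was just above the highest WT library, and the fitted value of 1.31 ± 0.48 fell to 0.55 without MT replicate 1. Ebf1 was at 1.48, 0.828 and 0.748 CPM in MT and at 0.505, 0.894 and 0.947 in WT. Its fitted value of 0.39 ± 0.34 was 0.02 without that library. The 2 commitment factors therefore shared the high replicate 1 and differed in the rest.

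Cd79a was at 37.7, 15.1 and 16.1 CPM in old MT and at 10.1, 25.1 and 23.5 in old WT. Here the top library was again MT replicate 1, and WT replicate 1 was the lowest of the 6. The fitted value of 0.24 ± 0.55 turned to -0.32 without MT replicate 1 and to -0.07 without WT replicate 1. Cd79b, its partner, was at 33.5, 13.1 and 13.4 CPM in MT and at 13.2, 16.7 and 17.1 in WT, with a fitted value of 0.36 ± 0.43 that became -0.24 without MT replicate 1.

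The surrogate light chain genes had the opposite layout. Vpreb1 was at 0.163, 0.630 and 0.641 CPM in old MT replicates 1, 2 and 3 (10, 38 and 30 counts) and at 0.139, 0.193 and 0.192 in old WT (8, 8 and 13 counts). Igll1 was at 0.261, 0.746 and 0.769 CPM in MT (16, 45 and 36 counts) and at 0.209, 0.314 and 0.296 in WT (12, 13 and 20 counts). In both genes MT replicate 1 lay inside the WT range and the other 2 MT libraries lay above it. Leaving out MT replicate 1 raised the fitted value of Vpreb1 from 1.43 ± 0.53 to 1.85 and that of Igll1 from 1.11 ± 0.44 to 1.47. These are low levels, and counts of this size are coarse.

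Vpreb3 was at 0.881, 1.34 and 1.28 CPM in old MT and at 0.279, 1.28 and 1.09 in old WT. WT replicate 1 stood low and the other 5 libraries were close. Its fitted value of 0.41 ± 0.47 was -0.02 without WT replicate 1.

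**Figure D2:**
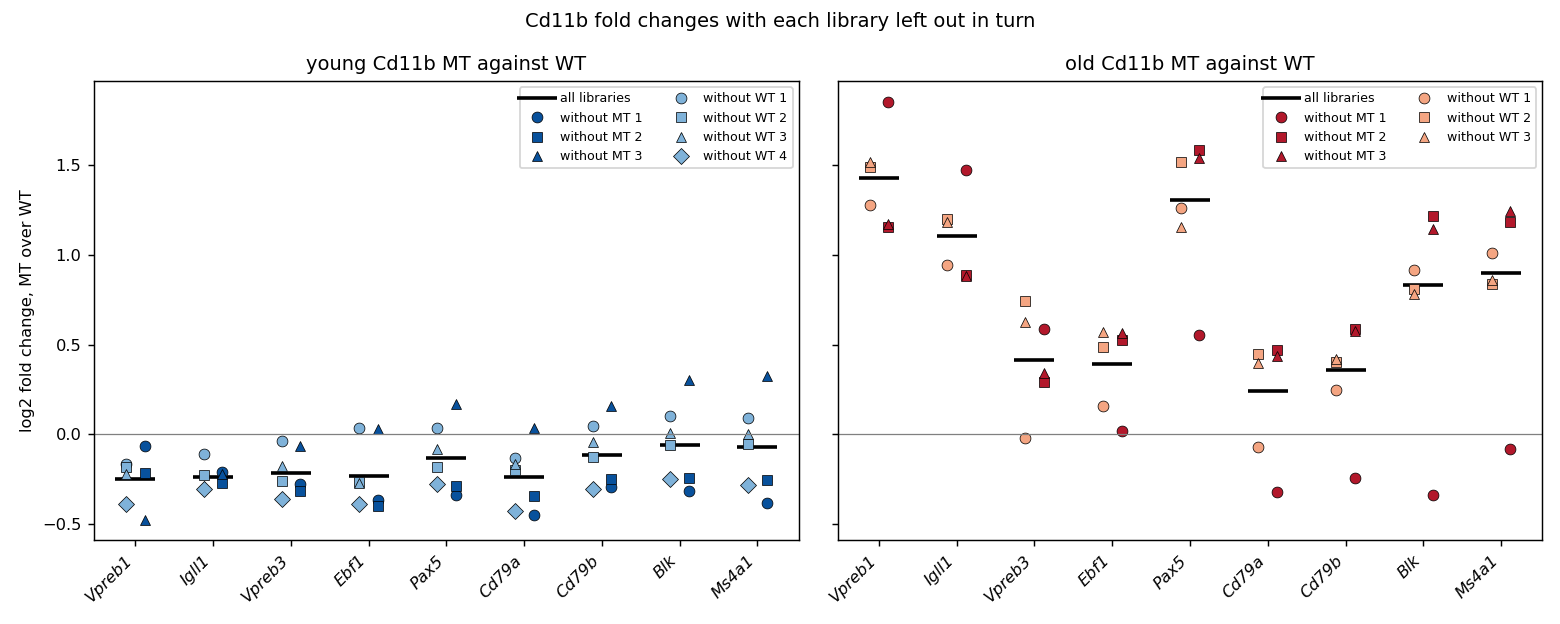
Fitted log2 fold change of MT over WT for each gene in CD11b cells, young on the left and old on the right, with a bar for the fit on all libraries and a marker for each fit with the named library left out. In the old set the values of Cd79a, Cd79b, Blk and Ms4a1 fall below 0 without MT replicate 1, while those of Vpreb1 and Igll1 rise.

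Longer marker lists divided in the same way. Of the 11 mature B genes other than Ms4a1, 10 had a positive and 1 a negative fitted value in old CD11b cells (median 0.63, against 0.00 over all genes tested), and none was called. Cd22, which encodes an inhibitory receptor of B cells, was at 49.1 CPM in MT replicate 1 and 6.84 to 9.78 in the other 5 libraries. In the list of B-1 and age-associated B cells (5 genes), Bhlhe41 was at 4.19 CPM in that library and 0.833 to 1.40 elsewhere. Zbtb32, of the same list, was at 4.70 CPM against 0.331 to 1.31. The median log2 ratio of this list to the set mean was 1.43 in MT replicate 1 and -0.76 to -0.29 in the others. Not all mature genes did so. Cr2, the complement receptor CD21, was at 0.750, 1.18 and 1.20 CPM in MT and 0.349, 0.652 and 0.532 in WT. Fcer2a, the IgE receptor CD23, was at 1.83, 2.32 and 2.41 CPM in MT and 0.889, 1.21 and 0.843 in WT. Both were chosen after their values had been seen, and MT replicate 1 was the lowest MT library in each.

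Of the 9 early pro-B and pre-B genes other than Vpreb1 and Igll1, 5 were tested in old CD11b cells, 4 with a positive and 1 with a negative fitted value, and none was called. Rag1, a recombinase subunit of pro-B and pre-B cells, was at 0.294, 1.33 and 1.30 CPM in MT and at 0.279, 0.242 and 0.311 in WT. Dntt, the template-free polymerase that adds bases at joins, was at 0.212, 1.09 and 0.897 CPM in MT and at 0.0349, 0.411 and 0.311 in WT. Both followed Vpreb1 and Igll1, high in MT replicates 2 and 3. Some markers of other cells moved with them. Siglech, of plasmacytoid dendritic cells, was at 1.31 and 1.52 CPM in MT replicates 2 and 3 and 0.261 to 0.435 in the other 4 libraries. The plasmacytoid dendritic list had a median log2 ratio of 0.29 and 0.31 in those 2 libraries and -0.26 to -0.11 in the rest. Its summed level did not follow, at 20.9, 18.4 and 17.6 CPM in MT replicates 1, 2 and 3 and 15.2 to 19.1 in WT. Ermap, an erythroid membrane protein, was at 7.42 and 8.57 CPM in those 2 libraries and 1.18 to 1.41 in the others. The erythroid list (9 genes listed of 10) had a median log2 ratio of 0.51 to 0.54 in those 2 libraries and -1.13 to -0.16 in the rest. Its summed level went with the replicate number instead. The sum was 116 and 116 CPM in MT replicates 2 and 3 and 111 and 103 in WT replicates 2 and 3. In replicate 1 it was 37.2 in MT and 41.3 in WT. The part of these cells in the result was not tested.

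Plasma cell genes did not follow either pattern. Igj, the joining chain of secreted immunoglobulin, was at 428, 680 and 657 CPM in old MT and at 166, 1330 and 1311 in old WT. Sdc1, the plasma cell surface proteoglycan CD138, was at 5.89, 5.37 and 5.87 CPM in MT and at 1.86, 10.5 and 9.95 in WT. WT replicate 1 was lowest and WT replicates 2 and 3 highest, as they were for Cd79a if MT replicate 1 is set aside. All 7 listed plasma cell genes had a negative fitted value (median -0.48) and none was called. Immunoglobulin constant region genes (0 of 6 listed) were not analysed here.

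**Figure D3:**
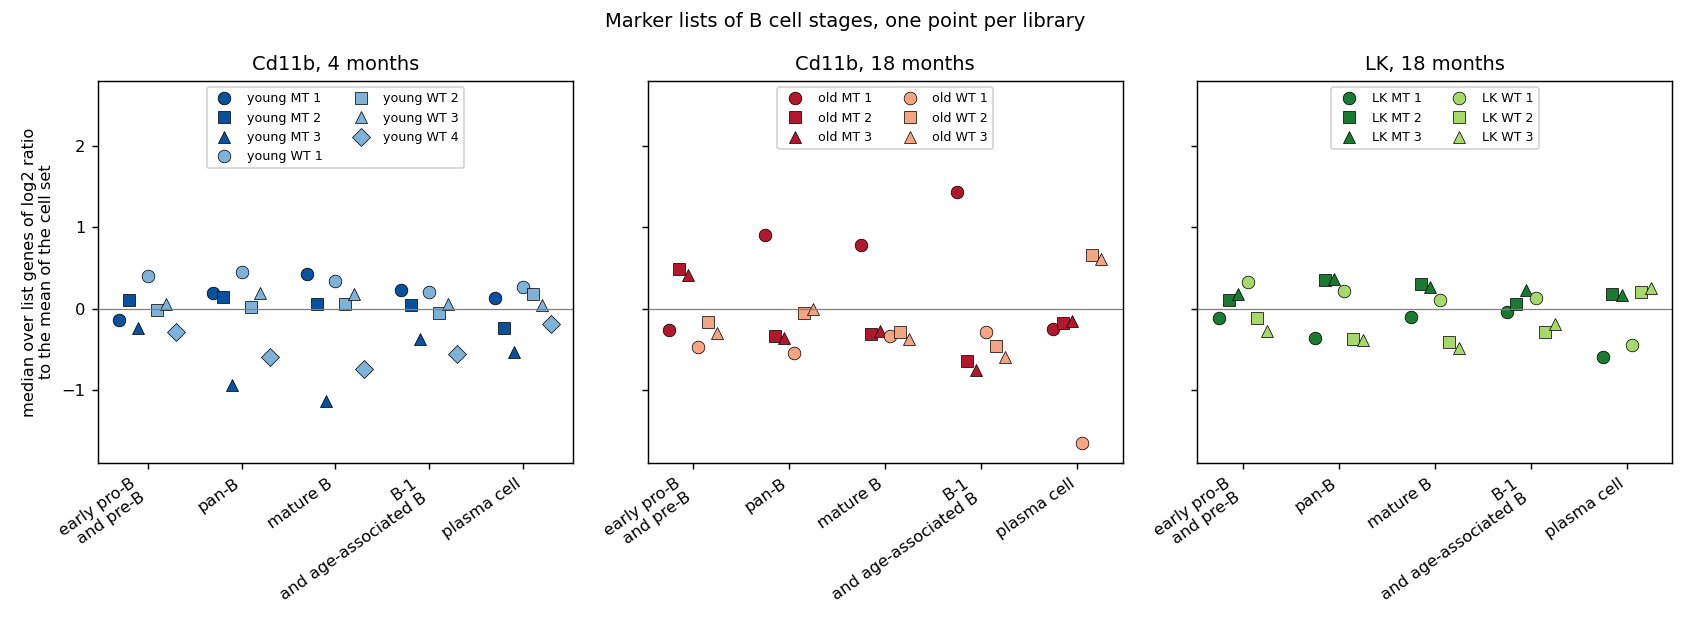
Median over the genes of each B cell stage list of the log2 ratio to the mean of the cell set, with one point per library, the lists along the x axis and one panel per cell set. Old MT replicate 1 is at 0.79 for mature B and 1.43 for B-1 and age-associated genes, and old MT replicates 2 and 3 are at 0.49 and 0.41 for early genes.

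The balance of the late gene Ms4a1 and the early gene Igll1 gives 1 number per library for these 2 genes. There were 86.7 Ms4a1 counts per Igll1 count in old MT replicate 1, 8.62 and 6.67 in old MT replicates 2 and 3, and 33.5, 17.7 and 19.7 in old WT replicates 1, 2 and 3. The old WT libraries thus lay between the MT libraries, with replicate 1 of MT above and replicates 2 and 3 below. The ratio compares libraries, not the amounts of the 2 genes, since it is not corrected for length. In old libraries it rests on 12 to 45 Igll1 counts and is coarse.

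**Figure D4:**
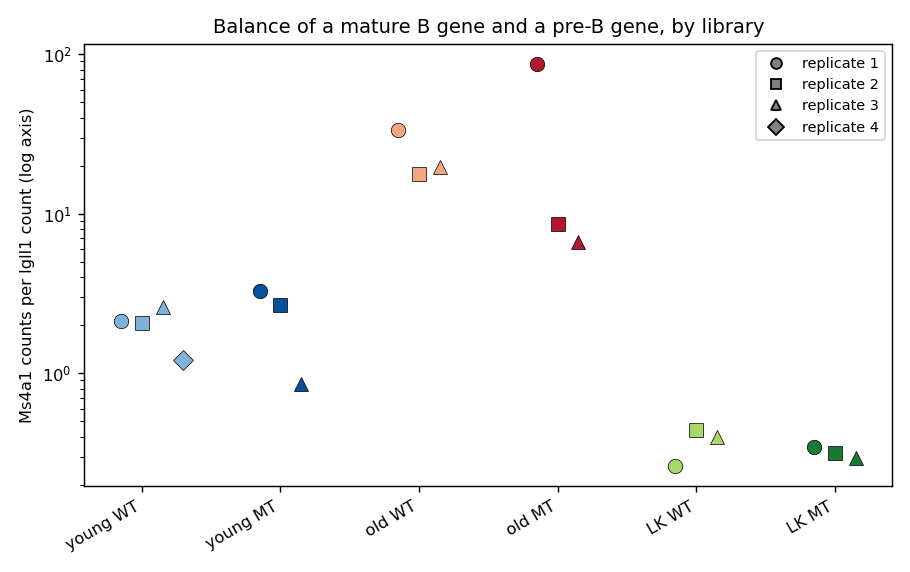
Ms4a1 counts per Igll1 count on a log axis for each library, by group, with marker shape for the replicate number. Old libraries span 6.67 to 86.7, young libraries 0.849 to 3.27 and LK libraries 0.261 to 0.442. Igll1 had only 12 to 45 counts in old libraries.

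In young CD11b cells all 9 genes were lower in MT than in WT by the fitted value, from -0.06 for Blk to -0.25 for Vpreb1. The groups overlapped in all 9 genes. Of all tested genes, 2.3% separated with MT higher and 2.15% with MT lower, and edgeR's quasi-likelihood test called 0 of 13755 (0%) at an adjusted p of 0.05. There were 444 genes at an unadjusted p under 0.05, and DESeq2 called 19.

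Here too Ms4a1 and Blk rested on single libraries. Ms4a1 was at 32.4, 28.9 and 8.52 CPM in young MT replicates 1 to 3 and at 32, 25.1, 28.0 and 12.6 in young WT replicates 1 to 4. MT replicate 3 and WT replicate 4 stood low and the other 5 libraries ran together. The fitted log2 fold change of -0.07 ± 0.49 (SE) was 0.32 without MT replicate 3 and -0.28 without WT replicate 4. Blk was at 16.4, 15.3 and 5.18 CPM in MT and at 16.8, 12.7, 14.5 and 7.22 in WT, with the same 2 libraries low.

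Pax5 was at 17.0, 16.2 and 7.0 CPM in young MT and at 19.5, 13, 16.3 and 9.97 in young WT. Ebf1 was at 18.8, 19.5 and 9.55 CPM in MT and at 28.2, 17.3, 17.4 and 12.2 in WT. Cd79a was at 51.5, 46.2 and 23.4 CPM in MT and at 57.4, 51.0, 54.7 and 27.3 in WT. MT replicate 3 and WT replicate 4 were the lowest of their groups in all 3 genes, and in Cd79b, at 25.1 and 26.8 CPM against 45.4 to 61.3 in the other 5.

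In the surrogate light chain genes WT replicate 4 was again the lowest of its group, but MT replicate 3 was not. Vpreb1 was at 4.55, 6.0 and 8.03 CPM in young MT, so that replicate 3 was the highest, and at 8.45, 8.15, 7.72 and 5.01 in young WT. Igll1 was at 9.90, 10.8 and 10.03 CPM in MT and at 15, 12.1, 10.8 and 10.4 in WT. Vpreb3 was at 10.8, 11.3 and 7.66 CPM in MT and at 15.5, 10.4, 12.4 and 7.83 in WT, nearer to the layout of Ms4a1 and Blk. Ms4a1 counts per Igll1 count were 0.849 in MT replicate 3 and 1.22 in WT replicate 4, against 2.07 to 3.27 in the other 5. Igll1 kept its sign with each library left out in turn (-0.30 to -0.11), as did Vpreb1 (-0.47 to -0.06) and Vpreb3 (-0.36 to -0.04).

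The same 2 libraries were set apart by sex-linked genes, looked at after their values had been seen. Xist, expressed from the inactive X chromosome, was at 0 CPM in MT replicate 3 and 0.306 in WT replicate 4, against 1687 to 1969 in the other 5. Ddx3y, on the Y chromosome, was at 104 and 109 CPM in those 2 and at most 0.0367 in the others. The mature B list had median log2 ratios of -1.14 and -0.74 there, and the plasmacytoid dendritic list -0.85 and -0.57. Without both libraries, 3 of 9 genes had a positive fitted value (Ms4a1 0.11, Blk 0.11 and Pax5 0.03), and Vpreb1 was at -0.61 and Igll1 at -0.28. The part of sex in these differences was not tested.

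In LK cells, which the choice of genes did not use, all 9 genes had a positive fitted value for MT against WT (median 0.50, against 0.02 over all genes tested). One of the 9, Cd79b, was called higher, with an adjusted p under 0.05 from edgeR's quasi-likelihood test over 14113 genes. That test called 29.8% of all genes (13.9% higher and 15.9% lower), so 1 of 9 is below the background. Cd79b was at 27.7, 34.8 and 34.4 CPM in MT and at 26.2, 23.5 and 22.7 in WT. The groups did not overlap in Cd79b alone of the 9, and 22.6% of all genes separated with MT higher and 23.5% with MT lower. The log2 fold change was 0.42 ± 0.10 (SE, adjusted p = 0.0164 by edgeR), with 3 of 3 MT libraries above every WT library. The call was lost without MT replicate 2 or 3 or WT replicate 2 or 3, with adjusted p from 0.0687 to 0.0743. With replicates 2 and 3 of each group summed into 1 library the adjusted p was 0.219, with all 19 libraries in 1 fit 0.434, and with a gene length trend removed 0.0680.

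The other 8 genes were not called, with adjusted p from 0.173 to 0.901 by edgeR, and in all 8 WT replicate 1 lay within or above the MT range. Vpreb1 was at 5.17, 8.47 and 8.03 CPM in LK MT and at 7.60, 2.40 and 2.16 in LK WT, a log2 fold change of 0.82 ± 0.49. Igll1 was at 5.08, 8.18 and 7.96 CPM in MT and at 8.58, 2.82 and 2.93 in WT, a change of 0.56 ± 0.45. Vpreb3 was at 3.42, 7.54 and 7.94 CPM against 6.38, 2.23 and 2.28. In all 3 genes MT replicates 2 and 3 and WT replicate 1 were high, and WT replicates 2 and 3 were low.

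Pax5 was at 0.854, 1.74 and 1.76 CPM in LK MT and at 1.34, 0.538 and 0.525 in LK WT. Ebf1 was at 1.37, 2.11 and 2.73 CPM in MT and at 2.99, 1.5 and 1.42 in WT, with a log2 fold change of 0.07 ± 0.35. Ms4a1 was at 1.75, 2.58 and 2.32 CPM against 2.24, 1.25 and 1.17, and Blk at 2.29, 3.87 and 3.35 against 3.33, 1.79 and 1.70. Cd79a was the exception to the pattern, at 14.1, 28.3 and 28.4 CPM in MT and 18.8, 21.4 and 22.2 in WT. Without WT replicate 1, 7 of the 9 genes were called higher, all but Cd79a and Ebf1. That fit called 38.8% of all genes (16.8% higher and 22.1% lower). Vpreb1 was at 1.64 (adjusted p = 0.00196 by edgeR) and Igll1 at 1.28 (adjusted p = 0.00438). The fit left only WT replicates 2 and 3 in WT, with a median absolute log2 difference of 0.0506 over the 9 genes. The WT spread behind these p-values is thus that between near-identical libraries. With replicates 2 and 3 of each group summed, none of the 9 was called.

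Of the mature B genes other than Ms4a1, 3 of 11 were called higher in LK MT and none lower: Bank1, a B cell adaptor (0.68 ± 0.22, adjusted p = 0.0497), Cr2 (1.40 ± 0.36, adjusted p = 0.0236) and Cd74, the invariant chain of antigen-presenting cells (0.53 ± 0.13, adjusted p = 0.0208). None of these 3 was called without MT replicate 2 or 3 or WT replicate 2 or 3, or with replicates 2 and 3 summed, while 4 of 11 were called without WT replicate 1. Of the 9 other early genes, none was called higher and Dntt was called lower (-0.40 ± 0.10, adjusted p = 0.0194), a call lost without MT replicate 2 or 3 and with replicates 2 and 3 summed. None of the 6 other pan-B genes or the 7 plasma cell genes was called. Of the 9 CD11b myeloid genes tested, 2 were called higher, S100a8 and Csf3r (0.33 ± 0.10, adjusted p = 0.0460), and Csf1r, the receptor of a macrophage growth factor, was called lower (-0.24 ± 0.05, adjusted p = 0.0150). Csf3r and Csf1r were chosen after their values had been seen. No call on this list held without MT replicate 2 or 3 or WT replicate 2 or 3 or with replicates 2 and 3 summed. Without MT replicate 1, 9 of 10 were called higher, and 6 of 9 erythroid genes lower. That fit left only the near-identical replicates 2 and 3 in MT, with a median absolute log2 difference of 0.0735 over the 9 B lineage genes. Fits with 1 library left out called 981 to 5569 of all genes, so 9 of 10 is not read as a result about this list. S100a8, a granule protein of neutrophils, was at 595, 1558 and 1430 CPM in LK MT and at 470, 308 and 291 in LK WT (1.74 ± 0.45, adjusted p = 0.0476). The CD11b myeloid list had a median log2 ratio of 0.96 and 0.98 in MT replicates 2 and 3 and from -1.34 to -0.50 in the other 4 libraries, none of its 10 genes being at 0. Nkg7, of the T and NK list, was called higher too (0.42 ± 0.10, adjusted p = 0.0193). The call on Nkg7 was lost in the same 5 fits, and those on S100a8 and Csf3r also without WT replicate 1. Of the 8 LK progenitor genes, 2 were called higher and 2 lower. Flt3, chosen after its values had been seen, was lower (-0.59 ± 0.09, adjusted p = 0.00657 by edgeR). Its call held in 6 of 7 fits with a library left out or replicates summed. The plasmacytoid dendritic and megakaryocyte lists each had 1 gene called higher, and the erythroid list 1 called lower. The part of these cells in the result was not tested.

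The LK set and the old CD11b set were compared in WT libraries only, and early and late B lineage genes differed in opposite directions. Old WT libraries also entered a contrast that chose the genes, which favours low values there. The p-values of the 9 genes are therefore not free of that choice and are a description. The early genes were higher in LK: Vpreb1 by 3.83 ± 0.60 on the log2 scale (adjusted p = 0.000351) and Igll1 by 3.43 ± 0.53 (adjusted p = 0.000299). The late gene Ms4a1 was lower in LK, by -2.67 ± 0.25 (adjusted p = 1.02e-05). Blk, which is on the pan-B list and not on the mature list, changed by -0.94 ± 0.26 (adjusted p = 0.00933). The other 5 were not called: Vpreb3 (1.36, adjusted p = 0.0535), Ebf1 (0.64), Cd79b (-0.08), Pax5 (-0.56) and Cd79a (-0.61). Between these 2 cell types 86.8% of all tested genes were called (45.1% higher and 41.7% lower), so 4 of 9 is below the background. On CPM scaled over these 6 libraries together, the groups did not overlap in 3 genes with LK higher (Vpreb1, Igll1 and Vpreb3) and in 2 with LK lower (Ms4a1 and Blk), as in 46.2% and 42.2% of all genes.

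The lists gave the same split. Of the 9 other early genes, 8 were called higher in LK, among them Dntt (7.02 ± 0.32) and Rag1 (3.29 ± 0.43), and Erg, a factor that stem cells and other lineages also make, was called lower. Of the 11 other mature B genes, 10 were called lower, among them Bank1 (-4.55 ± 0.15) and Cd22 (-2.59 ± 0.25), and H2-Ob, which regulates peptide loading on class II molecules, was called higher (0.48 ± 0.15), a call that held in 3 of 7 fits with a library left out or replicates summed. Several of these genes are not restricted to B cells: Dntt is made in lymphoid progenitors and Cd74 in myeloid antigen-presenting cells. The median over the early list was 4.60 and over the mature list -2.86, against 0.08 over all genes. Vpreb3 was called without LK WT replicate 2 or 3 (adjusted p = 0.0421 and 0.0484 by edgeR), and the call on Blk was lost when replicates 2 and 3 were summed (adjusted p = 0.0507) and when all 19 libraries were fitted together (0.215).

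WT old CD11b libraries had lower fitted levels of the 9 genes than WT young ones, most of all for Igll1 and Vpreb1. Igll1 changed by -5.19 ± 0.21 on the log2 scale (adjusted p = 2.14e-08) and Vpreb1 by -5.11 ± 0.26 (adjusted p = 9.60e-08). The commitment factors followed, Ebf1 with -4.32 ± 0.35 (adjusted p = 5.13e-06) and Pax5 with -4.06 ± 0.27 (adjusted p = 7.86e-07), and then Vpreb3 with -3.46 ± 0.44 (adjusted p = 0.000153). Blk changed by -1.99 ± 0.25, Ms4a1 by -1.73 ± 0.29 and Cd79b by -1.31 ± 0.27, each called by edgeR's quasi-likelihood test. Cd79a was not called, at -1.02 ± 0.40 (adjusted p = 0.0593), and it was called without young WT replicate 4 (-1.21, adjusted p = 0.0329).

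That made 8 of 9 lower, where 73.1% of all tested genes were called (36.1% higher and 36.9% lower). Old and young WT libraries both entered the contrasts that chose the genes, which favours low old WT and high young WT values. The p-values of the 9 genes and this count are therefore not free of that choice and are a description. On CPM scaled over these 7 libraries together, the groups separated with old lower in the same 8 genes and overlapped in Cd79a, and 36.1% of all genes separated with old lower and 35.9% with old higher. Of the 9 other early genes, 8 were called lower and Erg higher. Of the 11 other mature genes, 8 were called lower, and Cd74 was higher (0.58 ± 0.14, adjusted p = 0.00449). The 7 plasma cell genes had a median of -0.25, with 1 called lower and none higher. The 5 B-1 and age-associated genes had a median of -0.19, with 2 called lower and 1 higher. Other lineages fell in the same comparison: all 6 plasmacytoid dendritic genes and 7 of 8 T and NK genes were called lower. So were all 8 LK progenitor genes and 6 of 8 erythroid genes. All 10 CD11b myeloid genes were called higher. Age cannot be told apart here from the set in which the libraries were made, which also differed in 7SK counts and, in 3 of the 4 young WT libraries, in Xist.

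**Figure D5:**
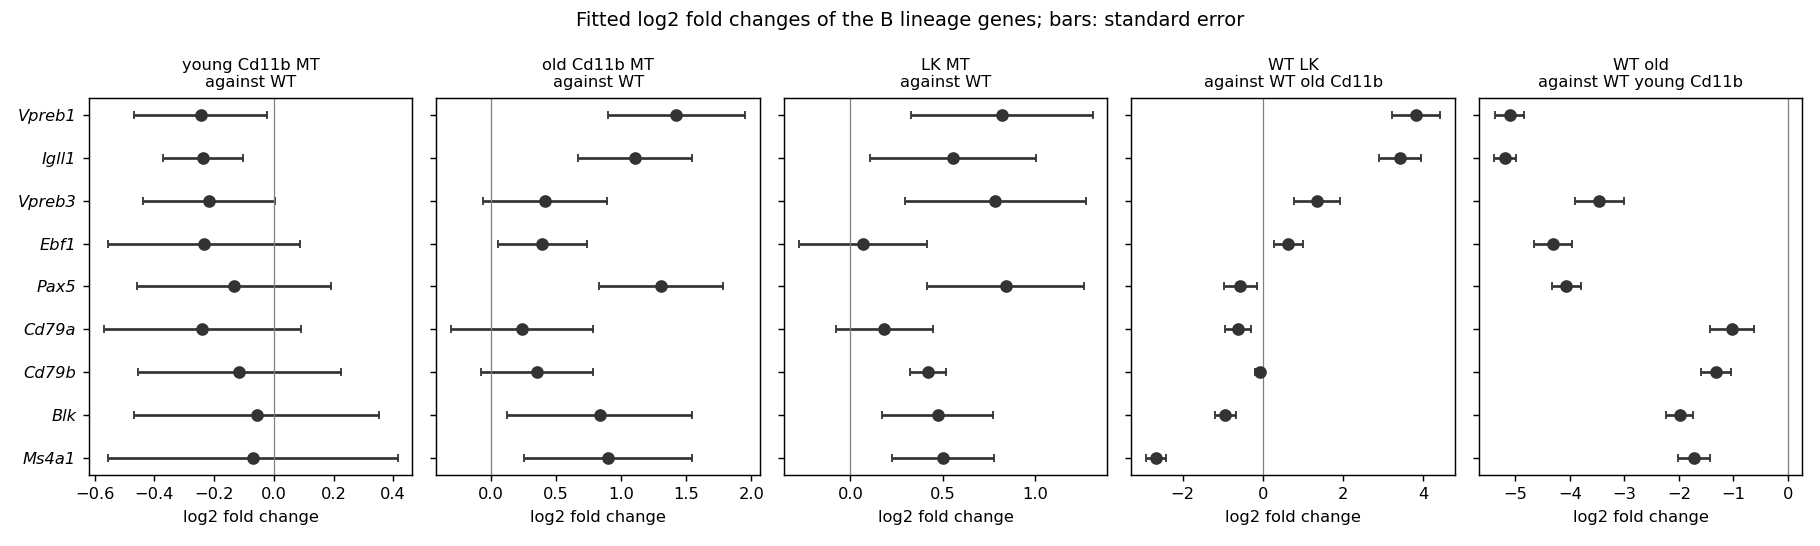
Fitted log2 fold change of each gene in the 5 comparisons, one panel each with its own x axis, with bars for 1 standard error. In WT LK against WT old CD11b the genes run from 3.83 for Vpreb1 to -2.67 for Ms4a1, and in WT old against WT young from -5.19 for Igll1 to -1.02 for Cd79a. The comparisons share WT libraries.

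To set the 6 groups in order, CPM was scaled over all 19 libraries together. By group mean, young WT was highest in all 9 genes. For Ms4a1 the order was young WT (24.6 ± 8.44 CPM, SD, n = 4), young MT (23.4 ± 12.9, n = 3), old MT (13.96 ± 11.8), old WT (7.52 ± 0.963), LK MT (1.82 ± 0.371) and LK WT (1.25 ± 0.504), and of these neighbours only old WT and LK MT did not overlap. For Vpreb1 it was young WT (7.37 ± 1.59), young MT (6.23 ± 1.76), LK MT (5.93 ± 1.55), LK WT (3.28 ± 2.55), old MT (0.590 ± 0.339) and old WT (0.215 ± 0.0375), and only LK WT and old MT did not overlap. Both old groups were at the bottom for Vpreb1, Igll1, Vpreb3 and Ebf1, and both LK groups for Ms4a1, Blk and Cd79a. For Pax5 and Cd79b the last 2 places went to old WT and LK WT.

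Summed over the 9 genes, the level was 110, 41.1 and 41.6 CPM in old MT and 35.1, 53.6 and 52.0 in old WT. The log2 ratio of the MT mean to the WT mean was 0.45, and it was -0.18 without MT replicate 1. In the young set the sum was 215, 205 and 105 CPM in MT and 254, 195, 216 and 119 in WT, a log2 ratio of -0.17 that was 0.10 without MT replicate 3. In the LK set it was 61.7, 97.5 and 96.8 CPM in MT and 77.4, 57.5 and 57.1 in WT, a log2 ratio of 0.42.

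Within the 13 CD11b libraries, each set centred on its own mean, Cd79a, Cd79b, Ms4a1, Blk, Pax5 and Ebf1 went together. Pearson's r of log2(CPM + 1) between pairs of these 6 genes ran from 0.78 for Cd79a and Ms4a1 to 0.98 for Ms4a1 and Blk. It was 0.76 for Vpreb1 and Igll1, while Vpreb1 against the 6 ran from -0.24 for Blk to 0.04 for Ebf1 and Igll1 against them from -0.07 for Blk to 0.38 for Ebf1. Vpreb3 lay between, from 0.31 with Blk to 0.74 with Ebf1. These libraries share their depth and preparation within a set, so the values are a description. Among 11882 other genes, the most like the mean of the 9 were Ly6d (r = 0.96), Ralgps2 (0.95), Cxxc5 (0.95), Ptprcap (0.94), Tbc1d13 (0.94), Ptp4a3 (0.93), Cnp (0.93), Prps2 (0.93), Parp1 (0.93) and Bcl7a (0.93). Ly6d, a surface marker of B-biased lymphoid progenitors, was at 10.1 CPM in old MT replicate 1 and 3.12 to 4.98 in the other old libraries. None of the 10 was in the marker lists.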

How the data were processed

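For each of the 19 libraries the authors deposited raw counts of genes and of transposable elements. RNA was extracted with an RNeasy kit and libraries were made with a directional NEBNext kit, per the labels' protocols. The submitters' processing notes name STAR, HTSeq, DESeq2 and mm10, and the settings are not given in the sources used here. Only genes were used, apart from the count of 7SK. Groups and replicate numbers came from the sample titles. The 9 genes, the marker lists and the tests were chosen with earlier results of these data known. Coordinates and promoters were taken from RefSeq (GRCm38.p6) by symbol.

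Each comparison was fitted over all listed genes with edgeR 4.0.16 in R 4.3.3 (filterByExpr, TMM factors, robust quasi-likelihood test, Benjamini-Hochberg adjustment, called under 0.05), using the libraries of the 2 groups compared. Values of the MT against WT contrasts in CD11b cells are described without a test, since they chose the genes. Standard errors were the absolute log2 fold change over the square root of F. CPM used library totals with TMM factors within each cell set, and, where sets were compared by overlap or order, TMM factors over all libraries compared. The fits were tested on simulated counts made from the real means, where 96 to 100% of genes changed by 1 on the log2 scale were recovered. Those counts were drawn independently with the same fixed dispersion for every gene, not with the spread of the real replicates. Changes were planted only in genes above a count threshold, which Vpreb1 and Igll1 in old CD11b cells did not reach. The recovery therefore checks the fitting and does not measure power in the real libraries. List ratios used log2(CPM + 0.25). Genes from each list were named if among the 4 with the highest mean CPM. Exceptions were Cr2, Fcer2a, H2-Ob, Csf3r, Csf1r and Flt3, named after their values had been seen, and the sorting marker Itgam. The 10 genes most like the B lineage genes were ranked among genes of at least 1 CPM. Alternatives were RLE factors, no filter, DESeq2 1.42.0, all 19 libraries in 1 fit, a replicate block, each library left out, near-identical replicates summed, the 2 young libraries that stand apart left out, and, chosen after seeing the data, a gene length trend (lowess span 0.3) removed. Precision is limited by 3 or 4 libraries per group and, for Vpreb1 and Igll1 in old cells, by counts of 8 to 45. Counts from overlapping genes were taken as deposited.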

Additional observations from a re-analysis of the deposited data

How the results depend on the processing

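Over the alternatives, counts and summed levels stayed within 1.5 times or 1 SD of their value in 117 cases and moved further in 37. Leaving out each library in turn gave summed log2 ratios of -0.34 to 0.10 (young), -0.18 to 0.69 (old) and 0.31 to 0.60 (LK), and 0 to 6 (young) and 5 to 9 (old) of the 9 B lineage genes positive. It gave 0 to 7 of them called in LK, and over all genes 981 to 5569 calls in LK, 0 to 1 in young and 0 to 1819 in old, against 4206, 0 and 45. Without the 2 young libraries that stand apart, 3 of the 9 were positive and 69 genes were called. DESeq2 called 19 genes in young and 521 in old, and fitting all 19 libraries together called 5 in young. Summing replicates 2 and 3 left 3 calls in LK and 1 in old. Of the 9 genes in LK, 0 were called with all libraries together, with the replicate block, with summed replicates and with the length trend removed, where old had 103 calls over all genes.

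Replicate numbers were shared across groups, but the correlation of same-numbered deviations was -0.24 to 0.13, so they were not taken as pairs. Not every library correlated best with its own number. With the replicate block, 3 genes were called in LK, 16 in young and 0 in old, and Cd79b in LK had an adjusted p of 0.0845 by edgeR. Signs turned in LK for Cd79a with the length trend removed (-0.019) and for Ebf1 with summed replicates (-0.19) and without single libraries (-0.18 to 0.49). Cd79b in WT LK against old CD11b turned to 0.014 with all libraries together. The causes were not tested.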

Other observations

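In WT libraries the count of Igj per Ms4a1 count was 277 to 1335 in LK, 23.7 to 239 in old CD11b and 33.4 to 78.6 in young CD11b. In LK MT it was 356, 511 and 551, and in LK WT 277, 1272 and 1335. Old MT replicate 1 was at 18.9, the lowest of the 19 libraries, with 106 and 128 in old MT replicates 2 and 3. These ratios compare libraries and are not corrected for gene length.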
